A study of Mus musculus with 6 samples.

Results

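The mitochondrial respiratory chain was examined in unstimulated dendritic cells through 46 genes, namely the 13 proteins encoded by mitochondrial DNA (mtDNA) and 33 subunits encoded in the nucleus. The genes were chosen by name from complexes I to V, with no measured value in the rule, and all 46 were among the 21849 genes with enough counts to be tested. Bone marrow derived dendritic cells (BMDCs) were grown from wild-type C57BL/6 mice (WT) and from mice lacking Nfkb2 in every tissue (Nfkb2-/-), with 3 libraries of polyA RNA per genotype. Nfkb2 encodes p100, the precursor of the NF-κB subunit p52 in the noncanonical NF-κB pathway. Both genotypes received 20 ng/mL GM-CSF alone for 5 days and 20 ng/mL GM-CSF with 10 ng/mL IL-4 for 4 more days, a culture of 9 days with no further stimulus. The knockout was global, so the marrow precursors lacked Nfkb2 throughout the culture, and neither age nor the number of mice behind a library was given in the labels. The study describes the replicates as independent biological ones, and the labels number them without saying which mice they came from.

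The respiratory chain oxidises NADH and succinate, passes their electrons to oxygen and pumps protons out of the mitochondrial matrix, and ATP synthase uses the returning protons to make ATP. Complex I takes electrons from NADH, complex II from succinate, complex III hands them to cytochrome c, complex IV hands them to oxygen, and complex V is ATP synthase. Complex II is built from nuclear genes alone, whereas the other complexes mix subunits of both genomes: the mtDNA genes are transcribed inside the organelle as long polycistronic RNAs, and the nuclear genes are transcribed one by one in the nucleus. Quiescent dendritic cells are known to rely on oxidative phosphorylation, and activated ones to shift toward glycolysis.

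Libraries held between 29863927 and 55623068 counts. Nfkb2 itself was at 215, 154 and 355 CPM (counts scaled to a library of common size, with edgeR's TMM factors) in the WT libraries and at 44.8, 32.3 and 32.6 in the Nfkb2-/- libraries (log2 fold change -2.72, SE 0.33, adjusted p = 0.0307), which matched the labels. All 12 dendritic cell markers were tested, and their summed level ran from 6187 to 11130 CPM in WT and from 8352 to 9298 in Nfkb2-/-, with 8 of the 12 above 0 in log2 fold change and 4 below. Itgax (the integrin CD11c) was called higher in Nfkb2-/- (log2 fold change 1.99, adjusted p = 0.0414), and at the low end Ccr7 and Zbtb46 had log2 fold changes of -0.97 and -0.54 (adjusted p = 0.235 and 0.192). Macrophage markers (8 tested) summed to 145 to 932 CPM in WT, where WT replicate 3 was the lowest, and to 564 to 698 in Nfkb2-/-. Neutrophil and granulocyte precursor markers (9 of 10 tested) summed to 105.3 to 419 and 148 to 184 CPM. Mast cell and basophil markers (6 of 7 tested) summed to 46.5 to 56.5 and 48.5 to 57.6 CPM. Most of these sums was Kit, at means of 40.5 CPM in WT and 45.9 CPM in Nfkb2-/-. Of the 6, 4 had log2 fold changes below 0 and 2 above (median -1.03). Cpa3 was called lower in Nfkb2-/- (adjusted p = 0.0413 in edgeR's test), and Gata2 had a log2 fold change of 1.47 (adjusted p = 0.119). Lymphocyte markers (4 of 5 tested) summed to at most 4.67 CPM, and of 5 erythroid markers the globin genes fell under the count filter. Proliferation markers (8 tested) summed to 104.7 to 434 CPM in WT and 537 to 855 CPM in Nfkb2-/- without overlap, and Mcm3 was called (adjusted p = 0.042). The part of these differences in the respiratory gene values was not tested, and in bulk RNA fewer cells of a type and less RNA per cell cannot be told apart. Nfkb2-/- replicate 1 stood apart in detecting 47952 genes against 27692 to 33841 in the other libraries.

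No respiratory chain gene differed between the genotypes at the threshold used for all genes, an adjusted p under 0.05 with a fold over 1.2 in edgeR's quasi-likelihood test. At that threshold 1.14% of all genes tested were called, 0.453% as higher and 0.682% as lower in Nfkb2-/-. At an unadjusted p under 0.05, 5 nuclear members were higher (Cox5a, Ndufa1, Atp5b, Uqcrq and Ndufs8) and 1 mtDNA member was lower (mt-Nd3), whereas 9.03% of all genes tested were higher and 8.04% lower by the same measure. DESeq2 called 2 members, Cox5a and Ndufa1, both higher, while it called 4.33% of all genes higher and 4.32% lower. limma voom called 1, Cox5a.

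The 13 mtDNA genes fell into a high and a low tier, and all but 1 of the low genes are duplicated almost whole in annotated nuclear genes. For the other, mt-Atp8, unannotated nuclear sequence was not searched. The duplicated sequence is shown first, because a read from it matches both places. Chromosome 1 carries a row of annotated pseudogenes that repeat part of mtDNA between mt-Co1 and mt-Nd4, all on the minus strand within chr1:24611535-24616197 (GRCm38). The copies of mt-Co2 (Gm28661), mt-Atp6 (Gm10925), mt-Co3 (Gm28437), mt-Nd4l (Gm10222) and mt-Nd4 (Gm28439) had 0 substitutions over their aligned length. The copy of mt-Co1 (Gm29216) had 1 substitution, A1066T, and the copy of mt-Nd3 (Gm28438) had 1, T3C, with the mtDNA base first, then the position counted from 1 at the first base of the mtDNA gene, then the base of the copy. The first 60 bases of mt-Nd3 (chrM:9459-9518, plus strand) and of its copy (chr1:24613060-24613119, minus strand) are shown from the GENCODE transcripts. The base that differs is in capitals, because it is the only substitution over their 345 aligned bases.
mt-Nd3: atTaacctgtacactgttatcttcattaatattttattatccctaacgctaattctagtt
Gm28438: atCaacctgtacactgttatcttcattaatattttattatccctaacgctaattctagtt
The first 60 bases of mt-Co2 (chrM:7013-7072, plus strand) and of its copy (chr1:24615506-24615565, minus strand) are shown as an example of a pair with no difference, so they carry no capitals.
mt-Co2: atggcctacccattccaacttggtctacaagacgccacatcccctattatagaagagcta
Gm28661: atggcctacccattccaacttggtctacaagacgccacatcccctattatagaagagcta
Neighbouring mtDNA genes also overlap each other. The end of mt-Atp8 (chrM:7910-7969) and the start of mt-Atp6 (chrM:7927-7986), both on the plus strand, share 43 bases, given in capitals.
mt-Atp8: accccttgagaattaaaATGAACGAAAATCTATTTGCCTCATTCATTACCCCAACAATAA
mt-Atp6: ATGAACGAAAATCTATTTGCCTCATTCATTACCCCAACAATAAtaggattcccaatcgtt
Further overlaps were 7 bases between mt-Nd4l and mt-Nd4, 1 base between mt-Atp6 and mt-Co3, and 14 bases between mt-Nd5 and mt-Nd6, which lie on opposite strands.

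The high tier held 7 genes. Per kilobase of exon, averaged over the 6 libraries, mt-Co1 (the catalytic subunit of complex IV) stood at 22480 CPM per kb. It was followed by mt-Nd1 at 11610, mt-Nd5 at 7345, mt-Cytb (the cytochrome b of complex III) at 6305, mt-Nd4 at 4623, mt-Nd2 at 4433 and mt-Nd6 at 3473 CPM per kb. These 7 genes held at least 99.75% of the mtDNA-encoded counts in every library. The 6 low genes were mt-Co2 at 164, mt-Co3 at 80.1, mt-Atp6 at 64.8, mt-Atp8 at 28.2, mt-Nd4l at 19.3 and mt-Nd3 at 12.2 CPM per kb. All of them but mt-Atp8 had 97.6% to 99.9% of their 100-base windows repeated in another annotated gene, whereas mt-Nd1, mt-Nd5, mt-Nd6 and mt-Cytb had 0%, mt-Nd2 had 3.19%, mt-Co1 30.8% and mt-Nd4 60.8%. mt-Atp8 had 0% by this measure. It lies between mt-Co2 and mt-Atp6, and the 233 bases between their copies on chromosome 1 carry no gene in the annotation used, so they were not searched. The last 43 bases of mt-Atp8, which it shares with mt-Atp6, do recur in Gm10925, but are shorter than a window. Whether the rest of mt-Atp8 has a copy in the unsearched stretch was not tested. Levels in the low tier are those of the counts that remained after reads matching several places had been handled, in a way not given in the sources used here. The same holds in part for mt-Nd4 and mt-Co1, whose counts were divided by full exonic length. The order of the high genes could therefore differ.

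**Figure D1:**
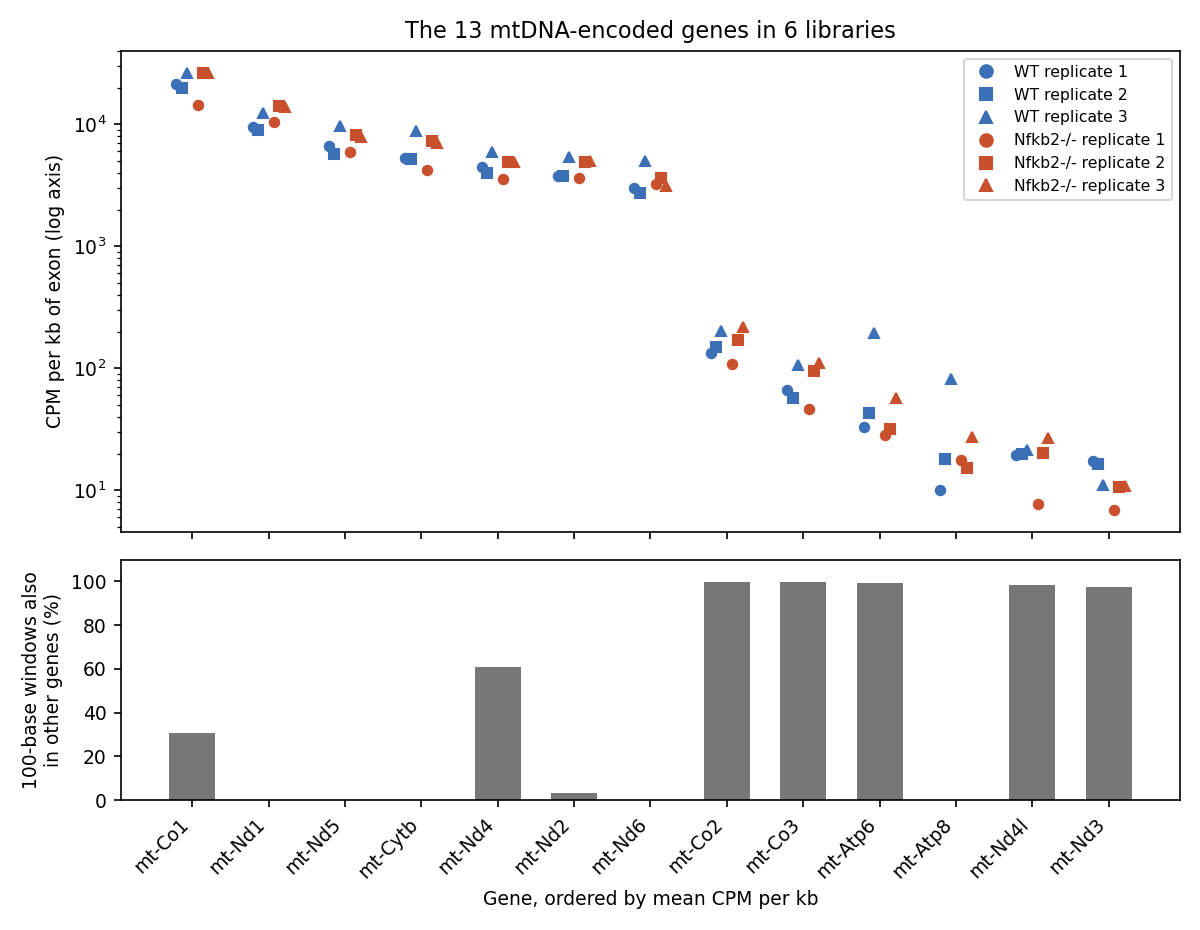
Upper panel: CPM per kilobase of exon (log axis) of the 13 mtDNA genes in each library, WT in blue and Nfkb2-/- in orange, ordered by mean level. Lower panel: percent of each gene's 100-base windows found in another annotated gene. The 7 high genes have means from 3473 to 22480 and the 6 low ones from 12.2 to 164 CPM per kb. All low genes but mt-Atp8 have 97.6% or more of their windows in another annotated gene. For mt-Atp8, the stretch between the copies of its neighbours was not searched.

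The mtDNA-encoded core of complex I has 7 genes, which form the proton-pumping membrane arm. mt-Nd1 (chrM:2751-3707) was at 9068, 8686 and 11970 CPM in WT and at 9960, 13670 and 13320 CPM in Nfkb2-/-. WT replicate 3 lay above Nfkb2-/- replicate 1, so the genotypes overlapped (log2 fold change 0.31, SE 0.25, adjusted p = 0.573). mt-Nd5 (chrM:11742-13565) was at 12120, 10510 and 17560 CPM in WT and at 10930, 14970 and 14290 CPM in Nfkb2-/-. Its highest library was WT replicate 3 and its lowest WT replicate 2, and the fitted difference was near 0 with a 95% interval from -0.67 to 0.67 on the log2 scale. mt-Nd2 had 3909 to 5663 CPM in WT and 3783 to 5178 in Nfkb2-/-, and mt-Nd4 had 5520 to 8137 and 4944 to 6749 CPM (log2 fold changes 0.06 and -0.10). mt-Nd6, the one protein gene on the minus strand of mtDNA, had 1422 to 2603 CPM in WT and 1616 to 1902 in Nfkb2-/- (log2 fold change -0.10). All of these genotype ranges overlapped. Across the 7 genes the summed level was 30060 to 45950 CPM in WT and 31310 to 42440 CPM in Nfkb2-/-.

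mt-Cytb carries the haem groups of cytochrome b in complex III, and mt-Co1 carries the site of complex IV where oxygen is reduced. mt-Cytb (chrM:14145-15288) was at 6024, 5992 and 10020 CPM in WT and at 4839, 8368 and 8036 CPM in Nfkb2-/-. mt-Co1 (chrM:5328-6872), the most abundant of the 46 genes, was at 33240, 30540 and 40510 CPM in WT and at 22180, 40860 and 41100 CPM in Nfkb2-/-. In both genes the lowest library was Nfkb2-/- replicate 1 and the other Nfkb2-/- libraries lay above WT replicates 1 and 2. The fitted log2 fold changes were -0.05 for mt-Cytb (SE 0.32) and near 0 for mt-Co1 (95% interval -0.78 to 0.78), so a difference of up to 1.71-fold higher or 0.581-fold lower in mt-Co1 lies within the interval. mt-Co2, which carries the copper site that receives electrons from cytochrome c, had 92.2, 102 and 139 CPM in WT and 74.5, 117 and 150 CPM in Nfkb2-/-. mt-Co3 had 44.5 to 82.8 CPM in WT and 36.2 to 86.1 CPM in Nfkb2-/-. Both overlapped (adjusted p of 0.963 and 0.874).

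mt-Atp6 and mt-Atp8, the mtDNA-encoded parts of the ATP synthase membrane sector, had the lowest fitted fold changes of the 46 genes, and both values rested on 1 library. mt-Atp6 (chrM:7927-8607) was at 22.5, 29.2 and 133 CPM in WT and at 19.5, 21.7 and 39.0 CPM in Nfkb2-/-. mt-Atp8 (chrM:7766-7969) was at 2.04, 3.66 and 16.5 CPM in WT and at 3.604, 3.13 and 5.61 CPM in Nfkb2-/-. WT replicate 3 was far above all other libraries in both genes, and without it the remaining WT libraries lay inside or near the Nfkb2-/- range. The log2 fold change of mt-Atp6 was -1.20 (SE 0.68, adjusted p = 0.422) with all libraries and 0.05 without WT replicate 3, and that of mt-Atp8 went from -0.84 (SE 0.72) to 0.54. With no filter on low counts mt-Atp6 passed the threshold as lower in Nfkb2-/- (adjusted p = 0.000546 in edgeR's test), and over the 16 alternatives its adjusted p ran up to 0.956. The chromosome 1 copy of mt-Atp6 took 54.2% to 62.2% of the counts of gene and copy together in the 6 libraries, with WT replicate 3 at 61.3%, so the raised counts of that library appeared on both.

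mt-Nd3 was the one mtDNA gene whose genotypes did not overlap, and it was lower in Nfkb2-/-, where 12% of all genes tested were lower without overlap. mt-Nd3 (chrM:9459-9806) was at 6.10, 5.69 and 3.85 CPM in WT and at 2.39, 3.69 and 3.80 CPM in Nfkb2-/-. WT replicates 1 and 2 were the high ones, and WT replicate 3 lay just above the highest Nfkb2-/- library (log2 fold change -0.66, SE 0.28, unadjusted p = 0.0492 and adjusted p = 0.29 in edgeR's test). These counts depended on how reads were divided between mt-Nd3 and Gm28438, which differ at T3C (chrM:9461). The copy took 28.4% (exact 95% binomial interval 23.8 to 33.4), 25.7% (20.4 to 31.6) and 81.3% (77.9 to 84.3) of the counts of both in WT replicates 1, 2 and 3. In Nfkb2-/- it took 66.4% (60 to 72.3), 75.4% (71.2 to 79.3) and 78.8% (76 to 81.3). WT replicate 3 thus lay with the Nfkb2-/- libraries and not with the other WT libraries, whose intervals lay far below its own. These intervals cover counting error only and treat each count as independent, and no molecular identifiers are named in the sources used here. In every library more genes held 2 counts than 1 (3980 against 2275 in WT replicate 1). Whether both reads of a fragment were counted was not tested, and the intervals would be too narrow if they were. Which base the mtDNA of each library carries at this position is not in the count files.

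mt-Nd4l (chrM:9877-10173), another small membrane subunit of complex I, was split in the same direction with a smaller gap. It had no substitution over the 294 bases aligned to its copy Gm10222. The copy took 36.4%, 34.6% and 58.4% of the counts of both in WT and 57.4%, 48.1% and 53.4% in Nfkb2-/-, so WT replicate 3 again stood with the Nfkb2-/- libraries. The exact 95% binomial intervals of WT replicate 1 (31.55 to 41.39) and Nfkb2-/- replicate 2 (42.81 to 53.51) lay close together. mt-Nd4l alone was at 5.81, 5.88 and 6.37 CPM in WT and at 2.304, 6.00 and 7.97 CPM in Nfkb2-/- (log2 fold change -0.15, SE 0.41), with Nfkb2-/- replicate 1 the lowest. The copies of mt-Co2 and mt-Co3 took 34.5% to 38.4% and 31.4% to 42.2% in all 6 libraries, and those of mt-Co1 and mt-Nd4 at most 0.167% and 0.742%. When each gene was summed with its copy, the log2 fold change of mt-Nd3 turned from -0.66 to 0.12 (SE 0.47) and that of mt-Nd4l from -0.15 to 0.03 (SE 0.42). Summed with its copy, mt-Nd3 was at 8.52, 7.66 and 20.6 CPM in WT and at 7.12, 15 and 17.9 CPM in Nfkb2-/-, and the genotypes overlapped.

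**Figure D2:**
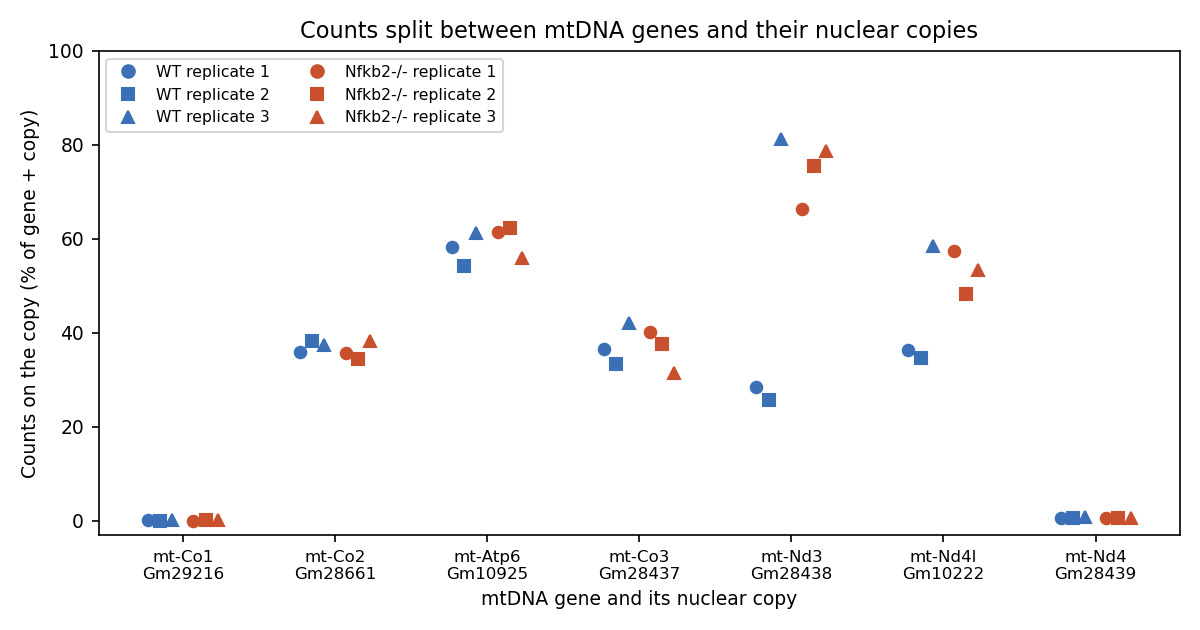
Percent of the counts of an mtDNA gene and its chromosome 1 copy that fell on the copy, 1 point per library, WT in blue and Nfkb2-/- in orange. For mt-Nd3, WT replicates 1 and 2 lie at 28.4% and 25.7% and the other 4 libraries between 66.4% and 81.3%. mt-Nd4l splits in the same direction with a smaller gap (36.36% and 34.59% against 48.15% to 58.43%), and the other 5 pairs do not.

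The share of each gene in the mtDNA-encoded counts was also compared. mt-Nd1 made up 12.5%, 13.01% and 12.4% of the mtDNA-encoded counts in WT and 17.0%, 14.9% and 14.7% in Nfkb2-/-. The shares did not overlap, which with 3 against 3 libraries gives an exact two-sided permutation p of 0.1, the smallest possible, and mt-Nd1 was the one of the 13 genes without overlap in this share. A separation of 1 gene in 13 at a p of that size is given as a description and not as a difference. The ratio of mt-Co1 to mt-Nd1 counts was 3.67, 3.52 and 3.38 in WT and 2.23, 2.99 and 3.09 in Nfkb2-/-, and that of mt-Cytb to mt-Nd1 was 0.664, 0.69 and 0.837 in WT and 0.486, 0.612 and 0.603 in Nfkb2-/-. Both ratios were lower in every Nfkb2-/- library, and both were chosen after the values of mt-Nd1 had been seen. mt-Co1 lies downstream of mt-Nd1 on the same strand, with mt-Nd2 between them, and the mt-Nd2 share overlapped between the genotypes (5.44% to 5.85% in WT and 5.59% to 6.47% in Nfkb2-/-). mt-Co1 itself made up 41.8% to 45.98% in WT and 37.9% to 45.4% in Nfkb2-/-, with Nfkb2-/- replicate 1 the lowest.

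Most nuclear members had higher fitted means in Nfkb2-/-, though none passed the threshold, and the mtDNA members had no stable direction. Of the 33 nuclear genes, 28 had a fitted fold change above 0, with a median log2 fold change of 0.22, and of the 13 mtDNA genes 4 were above 0, with a median of -0.05. The mtDNA median was 0.24 without WT replicate 3, 0.15 without Nfkb2-/- replicate 1 and 0.03 with total counts in place of TMM. Among all genes tested 55.7% were above 0 with a median of 0.08, and among the 10646 genes that averaged 5 CPM or more 47.8% were above 0 with a median of -0.02. WT and Nfkb2-/- libraries did not overlap for 9 of the 33 nuclear genes, all higher in Nfkb2-/-. Of all genes tested 12.7% were higher without overlap, as were 1623 of the 10646 genes that averaged 5 CPM or more. The proliferation markers were also higher without overlap, and their part in these values was not tested. The 9 were Ndufa1 and Ndufs8 of complex I, Sdha, Sdhb and Sdhc of complex II, Uqcrc2 and Uqcrq of complex III, Cox5a of complex IV and Atp5b of complex V.

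**Figure D3:**
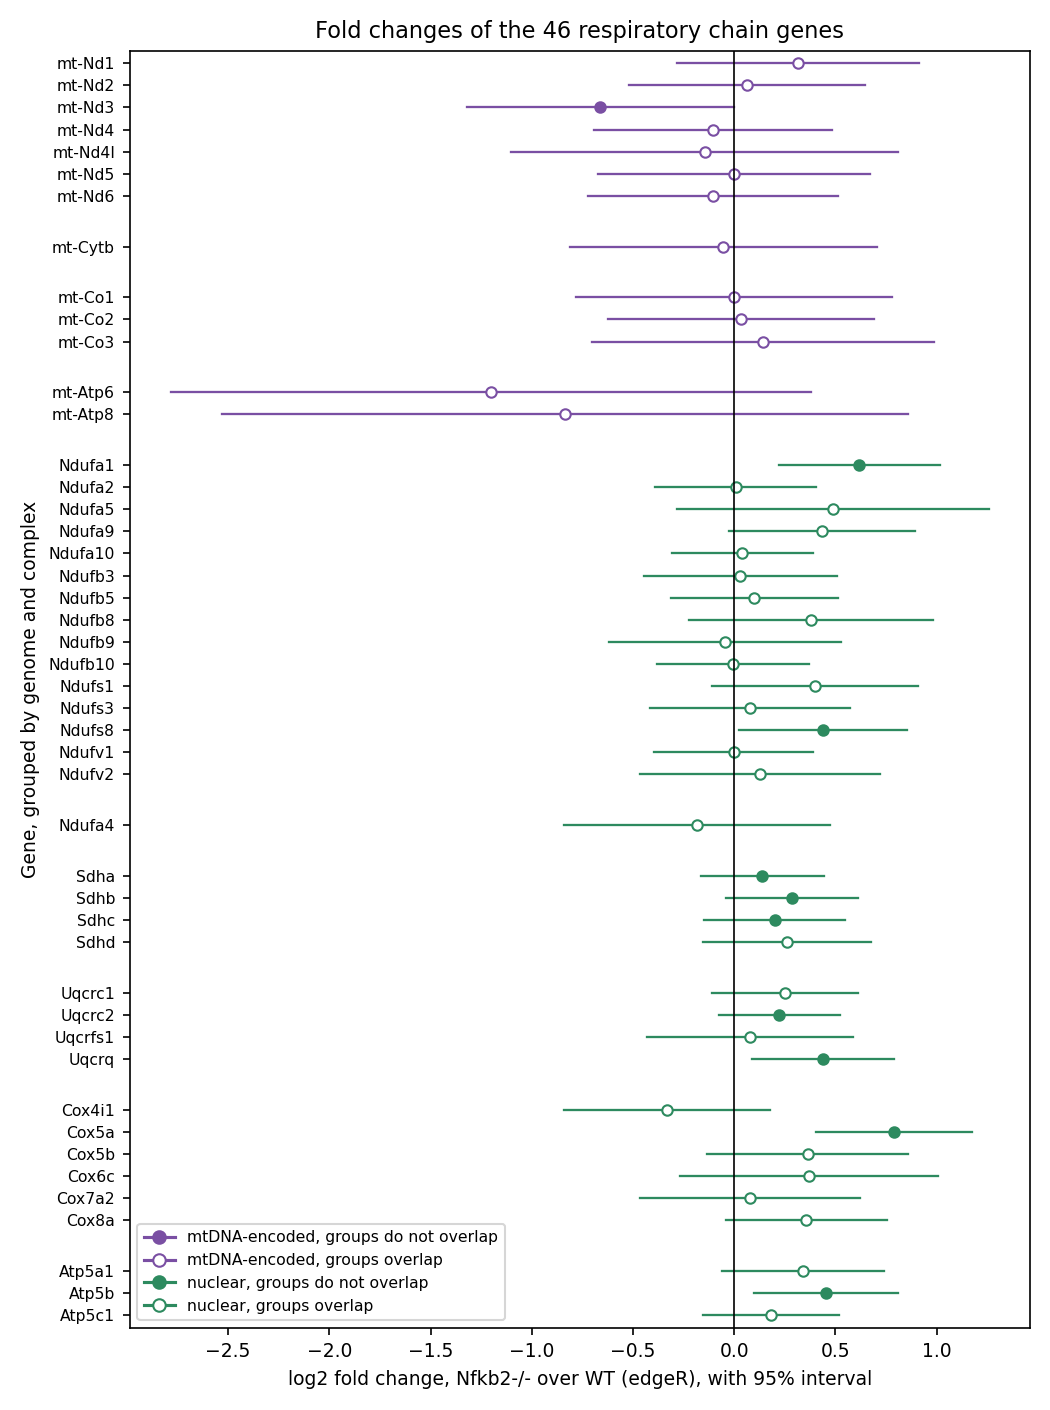
log2 fold change (Nfkb2-/- over WT, edgeR) with its 95% interval for all 46 genes, mtDNA genes in purple and nuclear genes in green, filled where the libraries of the genotypes do not overlap. The 13 mtDNA genes lie on both sides of 0 with wide intervals, from -1.20 for mt-Atp6 to 0.31 for mt-Nd1, and 28 of the 33 nuclear genes lie above 0, up to 0.79 for Cox5a.

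Cox5a, a structural subunit of complex IV that sits on the matrix side of the enzyme, had the largest difference of the nuclear members. Cox5a (chr9:57521274-57532426, plus strand) was at 18.6, 17.6 and 23.2 CPM in WT and at 35.2, 35.9 and 31.7 CPM in Nfkb2-/-. All Nfkb2-/- libraries lay above all WT libraries, at 1.73-fold in the fit (95% interval 1.32 to 2.26), but the adjusted p of 0.0735 in edgeR's test missed the threshold. It passed in 4 of 16 alternatives, namely in DESeq2 (adjusted p = 0.00215), in limma voom (adjusted p = 0.04997), with at least 10 counts required in every library (adjusted p = 0.0491) and without WT replicate 3 (adjusted p = 0.0498). In the others the adjusted p ran up to 0.314 without Nfkb2-/- replicate 2, and was 0.143 with the replicate block, 0.181 with no filter and 0.303 without WT replicate 1. Of its 100-base windows 13.6% also occur in Gm26631, so a part of its reads could be counted elsewhere.

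Of the 6 nuclear complex IV genes, 5 had fitted fold changes above 0 (median log2 fold change 0.36), and Cox4i1 was the one below 0. Cox8a, a small membrane subunit and the most abundant nuclear member per length at 204 CPM per kb, was at 99.1, 106 and 128 CPM in WT and at 150, 156 and 121 CPM in Nfkb2-/- (log2 fold change 0.36, SE 0.17, adjusted p = 0.348). Its Nfkb2-/- replicate 3 lay below WT replicate 3. Cox4i1, the subunit through which ATP inhibits the enzyme, was at 50.5, 47.7 and 73.6 CPM in WT and at 37.9, 52.3 and 46.3 CPM in Nfkb2-/-, the lowest fitted value of the nuclear members (log2 fold change -0.33, SE 0.22, adjusted p = 0.487), with WT replicate 3 the highest. Cox5b, Cox6c and Cox7a2, further small subunits, had log2 fold changes of 0.36, 0.37 and 0.08, and each overlapped. Ndufa4, first assigned to complex I and now also to complex IV, had 12.2 to 21.4 CPM in WT and 10.9 to 16.6 CPM in Nfkb2-/- (log2 fold change -0.19). Summed over the 6 complex IV genes, the level was 258 to 365 CPM in WT and 336 to 386 CPM in Nfkb2-/-, and overlapped.

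Among the 15 nuclear complex I subunits, Ndufa1 and Ndufs8 were the ones without overlap. Ndufa1, a small membrane-arm subunit needed for assembly (chrX:37187588-37191163, minus strand), was at 15.8, 17.2 and 21.8 CPM in WT and at 29.1, 27.9 and 27.3 CPM in Nfkb2-/-. Its Nfkb2-/- libraries lay close together above all WT libraries (1.53-fold, 95% interval 1.17 to 2.02, adjusted p = 0.131 in edgeR's test, 0.0323 in DESeq2 and up to 0.503 over the 16 alternatives). Ndufs8, which binds iron-sulfur clusters in the electron path (chr19:3908863-3912774, minus strand), was at 6.69, 8.80 and 8.60 CPM in WT and at 10.6, 10.8 and 11.2 CPM in Nfkb2-/- (log2 fold change 0.44, SE 0.18, adjusted p = 0.267). Ndufa1 was also the most abundant complex I subunit per length at 55.4 CPM per kb, against 3.90 CPM per kb for Ndufv1, the subunit that binds NADH and the lowest of the 33. Ndufs1, the largest subunit, had 45.3 to 59.0 CPM in WT and 48.5 to 78.7 in Nfkb2-/-, and Ndufv2, which partners Ndufv1, had 38.1 to 47.9 and 29.3 to 53.4 CPM. In Ndufv2, as in Ndufa5 and Ndufs3, Nfkb2-/- replicate 1 was the lowest of all 6 libraries while the other Nfkb2-/- libraries were above every WT library. Ndufv1, Ndufb10 and Ndufa2 had fitted log2 fold changes of -0.0023, -0.0034 and 0.0069. The median of the 15 was 0.10, with 12 above 0.

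Complex II links the chain to the citric acid cycle, and all 4 of its subunits had higher means in Nfkb2-/-, by a small amount. Sdhb, which carries the iron-sulfur clusters (chr4:140961203-140979193, plus strand), was at 31.2, 33.1 and 29.2 CPM in WT and at 38.5, 40.2 and 35.1 CPM in Nfkb2-/-, without overlap (1.22-fold, 95% interval 0.972 to 1.53, adjusted p = 0.359). Sdhd, a membrane anchor and the most abundant of the 4 per length at 71.4 CPM per kb, was at 73.7, 71.8 and 94.2 CPM in WT and at 80.5, 106 and 101.0 CPM in Nfkb2-/-, with an overlap at WT replicate 3. Sdha, the succinate-oxidising flavoprotein, had 81.9 to 94.1 CPM in WT and 97.5 to 98.3 in Nfkb2-/-, and Sdhc, the other anchor, had 20.0 to 20.6 and 20.6 to 25.7 CPM. In Sdhc the highest WT library was at 20.64 CPM and the lowest Nfkb2-/- library at 20.65 CPM, so its groups all but touched. The summed level of the complex was 207, 219 and 234 CPM in WT and 237, 268 and 259 CPM in Nfkb2-/-, also without overlap, with a ratio of means of 1.16.

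In complexes III and V all 7 nuclear genes also had fitted fold changes above 0. Uqcrq, a small subunit next to cytochrome b (chr11:53427922-53430831, minus strand), was at 23.3, 20.2 and 25.7 CPM in WT and at 31.5, 30.7 and 31.6 CPM in Nfkb2-/- (log2 fold change 0.44, SE 0.15, adjusted p = 0.198), with all Nfkb2-/- libraries above WT. Uqcrc2, a core protein, had 38.8 to 42.2 CPM in WT and 46.2 to 47.2 in Nfkb2-/- (log2 fold change 0.22), and 22.7% of its windows also occur in the overlapping gene Pdzd9. Uqcrfs1, the Rieske iron-sulfur protein and the most abundant of the 4 per length at 31.6 CPM per kb, was at 43.3, 39.4 and 42.98 CPM in WT and at 31.0, 47.8 and 53.9 CPM in Nfkb2-/-, with Nfkb2-/- replicate 1 the lowest. Atp5b, the catalytic beta subunit of ATP synthase and the nuclear member with the most counts (chr10:128083273-128090391, plus strand), was at 203, 231 and 259 CPM in WT and at 313, 330 and 305 CPM in Nfkb2-/-. Every Nfkb2-/- library lay above WT (1.37-fold, 95% interval 1.07 to 1.75, adjusted p = 0.19). The alpha subunit Atp5a1 had 132 to 184 CPM in WT and 184 to 218 in Nfkb2-/-, where WT replicate 3 lay just above Nfkb2-/- replicate 1, and the central-stalk subunit Atp5c1 had 110 to 121 and 114 to 142 CPM. Summed over the 3 genes the level was 448, 508 and 564 CPM in WT and 611, 683 and 656 CPM in Nfkb2-/-, again without overlap and with a ratio of means of 1.28.

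**Figure D4:**
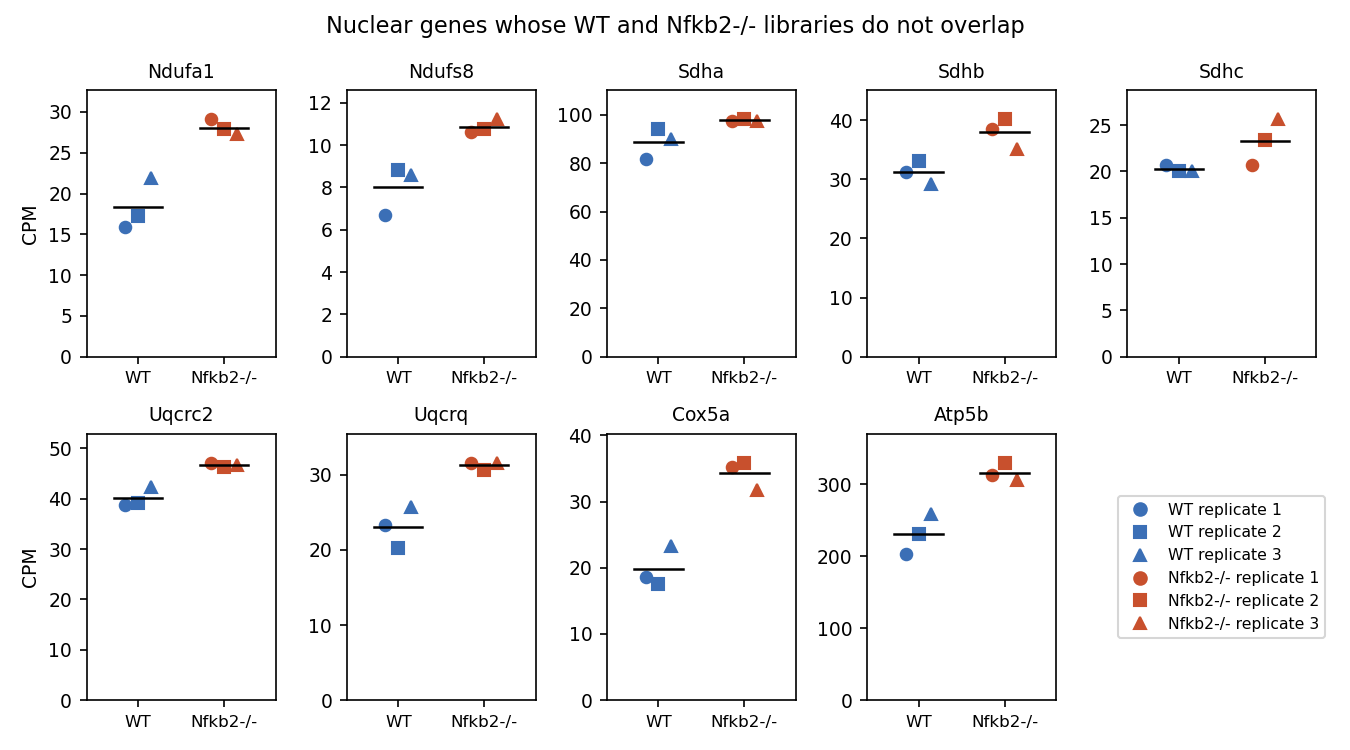
CPM of the 9 nuclear genes whose libraries do not overlap between the genotypes, 1 point per library with the group mean as a bar; each axis starts at 0. In Cox5a the WT libraries lie between 17.6 and 23.2 CPM and the Nfkb2-/- libraries between 31.7 and 35.9 CPM, while in Sdhc the highest WT and lowest Nfkb2-/- libraries nearly touch.

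The genomes were then compared as a whole. The 13 mtDNA genes took 7.14%, 6.95% and 8.58% of all counts on named genes in WT and 6.74%, 8.91% and 8.81% in Nfkb2-/-, and the genotypes overlapped (7.56% ± 0.894 and 8.15% ± 1.22, SD, n = 3 each). This share depends on how reads that also match the chromosome 1 copies were handled, which is not given in the sources used here. The 33 nuclear genes took 0.133%, 0.151% and 0.146% in WT and 0.189%, 0.184% and 0.177% in Nfkb2-/-, so the genotypes did not overlap by raw share. That separation depended on the scaling. On the TMM scale the summed nuclear level was 1347, 1447 and 1651 CPM in WT and 1636, 1902 and 1824 CPM in Nfkb2-/-, with WT replicate 3 just above Nfkb2-/- replicate 1 (ratio of means 1.21). The log2 ratio of the mtDNA to the nuclear sum, which no scaling changes, was 5.75, 5.53 and 5.87 in WT and 5.16, 5.59 and 5.63 in Nfkb2-/-. The mean was lower in Nfkb2-/- by 0.25 on the log2 scale, but the genotypes overlapped, since WT replicate 2 lay below 2 of the Nfkb2-/- libraries. Without Nfkb2-/- replicate 1, the lowest library, the difference was -0.10, and with mt-Nd1, mt-Nd2, mt-Nd5, mt-Nd6 and mt-Cytb alone as the mtDNA sum it was -0.18.

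**Figure D5:**
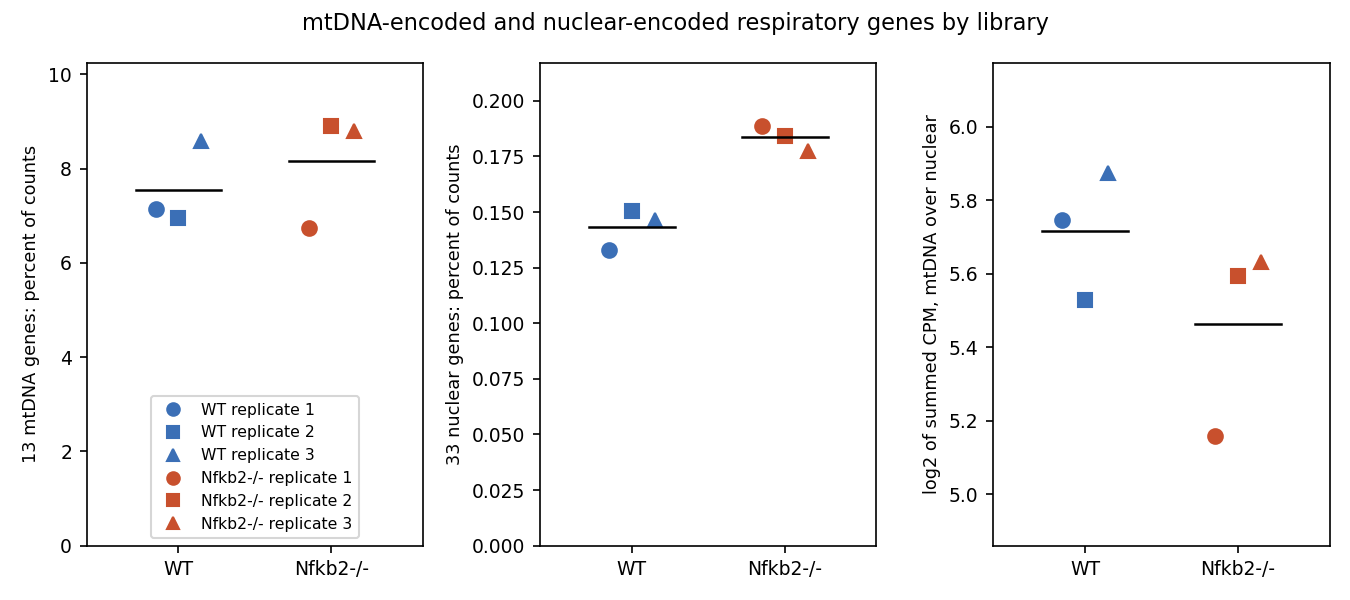
Percent of counts on the 13 mtDNA genes (left) and the 33 nuclear genes (middle), and the log2 ratio of their summed CPM (right, axis not from 0), 1 point per library with the group mean as a bar. The nuclear share separates the genotypes (0.133% to 0.151% against 0.177% to 0.189%), whereas the mtDNA share and the ratio overlap.

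A list of 46 nuclear subunits and associated proteins outside the 33 was also examined. It included Cycs and the ATP synthase inhibitor Atpif1. Of the list 45 genes were tested, and none of them was called. Of the 45, 31 had fold changes above 0, with a median log2 fold change of 0.20. At an unadjusted p under 0.05 in edgeR's test, 9 were higher and 2 lower. Over all genes tested these shares were 55.7% above 0, 9.03% higher and 8.04% lower. Cycs, which encodes cytochrome c, was at 9.65, 10.9 and 8.33 CPM in WT and at 14.5, 19.3 and 21.9 CPM in Nfkb2-/- (log2 fold change 0.95, SE 0.21, adjusted p = 0.0872), and Cox7b and Cox6b1 had log2 fold changes of 0.67 and 0.30 with overlap. In complex III, Uqcrb and Cyc1 (cytochrome c1) had log2 fold changes of 0.58 and 0.41, while Uqcrh, which aids the docking of cytochrome c, was at 71.5, 71.6 and 102 CPM in WT and at 39.3, 60.2 and 57.2 CPM in Nfkb2-/- (log2 fold change -0.64, SE 0.23, adjusted p = 0.208), below every WT library. In complex I, Ndufa12 and Ndufc1 had log2 fold changes of 0.95 and 0.52, and Ndufb2 had -0.59 without overlap. In complex V, the c-ring genes Atp5g1 and Atp5g3 had 0.69 and 0.67, and Atp5d 0.41. Single subunits of one complex thus lay on both sides of 0.

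The machinery around the chain was also below the threshold. Of 17 enzymes of the citric acid cycle, 15 had fold changes above 0 (median log2 0.28), 8 were higher without overlap and 6 at an unadjusted p under 0.05, beside 55.7%, 12.7% and 9.03% of all genes tested by the same measures. Fh1, fumarase, was at 18.2, 22.9 and 12.7 CPM in WT and at 35.6, 43.5 and 47.6 CPM in Nfkb2-/- (log2 fold change 1.23, SE 0.24, adjusted p = 0.0629), and citrate synthase, Cs, had a log2 fold change of 0.47 (adjusted p = 0.134). Among 20 genes of mitochondrial import and the inner membrane, 16 were above 0 (median 0.13). Their smallest p was that of Timm50, a subunit of the inner-membrane import channel, which was at 5.98, 5.38 and 5.61 CPM in WT and at 12.2, 10.8 and 9.69 CPM in Nfkb2-/- (log2 fold change 0.94, adjusted p = 0.0559), and the ADP/ATP carrier Slc25a5 and the chaperonin Hspd1 had 0.65 and 0.50. The 41 assembly factors tested were spread around 0 (27 above, median 0.07), with Tmem126b at 0.74 and Timmdc1 and Sdhaf1 at -0.45 and -0.79. Of 28 genes for mtDNA replication, transcription and RNA handling, 18 were above 0 (median 0.11), and the smallest p-values were those of Hsd17b10, a subunit of mitochondrial RNase P, at 0.76 (adjusted p = 0.0966), Tbrg4 at 0.51 and the polymerase Polg at -0.28. The transcription and packaging factor Tfam was at 13.4, 15.01 and 13.3 CPM in WT and at 9.98, 15.6 and 15.3 CPM in Nfkb2-/-, and it was named after its value was seen. Of 14 nuclear regulators, 7 lay on each side of 0, with the coactivator Pprc1 at 0.62 and the deacetylase Sirt1 and the kinase subunit Prkaa1 at -0.54 and -0.34.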

How the data were processed

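RNA-seq of polyA RNA was measured in 6 BMDC libraries, 3 WT and 3 Nfkb2-/-. The authors deposited raw read counts per Ensembl gene, and the submitters' processing notes name HISAT2 and GRCm38/mm10, while the counting tool, its strand setting and its handling of reads that match several places are not given in the sources used here. Symbols, coordinates and exon lengths came from GENCODE M21 (GRCm38), which named 52073 of 56748 IDs; the other IDs held 1.01% to 1.75% of counts. Genes with a name and a sum of at least 50 counts (21849) were tested with edgeR 4.0.16 (R 4.3.3; TMM, quasi-likelihood test, Benjamini-Hochberg adjustment over all genes); called means adjusted p under 0.05 and fold over 1.2. The fits alone were tested on simulated counts, with fold changes larger than any fitted for the members. The window search and the alignments were not tested in this way. CPM per kb divides by exonic length. Windows of 100 bases of each gene's longest coding transcript were searched in all other GENCODE transcripts on both strands. Alternatives used DESeq2 1.42.0, limma 3.58.1 (voom), other scalings and filters, a replicate block and leaving out each library. The members, lists and tests were chosen with earlier results of these data known. Named were all mtDNA members, in each complex the nuclear member most abundant per length and the one with the largest change, of each other list any called and up to 3 genes with the smallest p, and Nfkb2; members without overlap, and others given with values to complete a complex, were named after their values were seen. Same-numbered libraries were not treated as pairs, since the labels do not tie them. The correlations of their deviations were 0.262, 0.148 and 0.0224 for replicates 1, 2 and 3. Between differently numbered libraries of the genotypes they ran from -0.237 to 0.164. These values do not settle whether some of the libraries are paired. Whether duplicate reads were removed is not stated. A gene that the naming rule also picked is not reported here.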

Additional observations from a re-analysis of the deposited data

How the results depend on the processing

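The direction of the nuclear median (log2 fold change 0.14 to 0.32) held under every alternative run. The lower mean mtDNA-to-nuclear ratio and the higher mean mtDNA share held in the alternatives run for them. For the share these were left-out libraries, all IDs in the denominator and summing with the chromosome 1 copies, and not other scalings. On the TMM scale the summed mtDNA level averaged 78630 CPM in WT and 80310 CPM in Nfkb2-/- (ratio of means 1.02). Of all genes 248 were called, against 1890 by DESeq2, 488 by limma voom, 397 with filterByExpr, 1625 with no filter beyond 1 count, 459 with at least 10 counts in every library and 0 with the replicate number as a block. Leaving out single libraries gave 0 to 1248 calls: 1248 without WT replicate 2, 270 without WT replicate 3 and 0 without each of the others. Members called were 0, against 2 by DESeq2, 1 by limma voom, 1 with no filter, 1 with at least 10 counts in every library, 0 with the block and 0 to 1 when single libraries were left out (1 without WT replicate 3); 6 members had an unadjusted p under 0.05. The mtDNA members had no stable direction. The median ran from -0.20 to 0.24 over left-out libraries, was 0.24 without WT replicate 3 and 0.15 without Nfkb2-/- replicate 1, and was 0.03 with total counts in place of TMM. Signs turned with limma voom for mt-Nd5 (0.0174) and mt-Co2 (-0.0042), with the block for mt-Nd5 (0.02) and mt-Co2 (-3e-04), with no filter for mt-Co2 (-0.0036), with at least 10 counts in every library for mt-Nd5 (0.0125) and mt-Co1 (0.0043), and with total counts for mt-Nd5 (0.0951), mt-Nd6 (0.0105), mt-Cytb (0.0325) and mt-Co1 (0.0676). Summing with the chromosome 1 copies turned mt-Nd3 (0.12) and mt-Nd4l (0.0316). Over left-out libraries the log2 fold changes ran from -0.0323 to 0.26 for mt-Nd2, -0.22 to 0.0777 for mt-Nd4, -0.53 to 0.21 for mt-Nd4l, -0.15 to 0.25 for mt-Nd5, -0.27 to 0.22 for mt-Nd6, -0.21 to 0.24 for mt-Cytb, -0.15 to 0.23 for mt-Co1, -0.21 to 0.26 for mt-Co2, -0.10 to 0.45 for mt-Co3, -1.60 to 0.0548 for mt-Atp6, -1.29 to 0.54 for mt-Atp8 and -0.0855 to 0.27 for Uqcrfs1. The cause of these changes was not tested beyond the libraries and filters named. Cox5a (log2 fold change 0.71 to 0.92) and Ndufa1 (0.53 to 0.77) kept their direction under all alternatives run. With 3 libraries per genotype, the 95% intervals of the nuclear members included 0, except for Cox5a, Ndufa1, Atp5b, Uqcrq and Ndufs8. A p above the threshold does not show equality.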

Other observations

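Transcripts of mtDNA that encode no protein were outside the comparisons. The ribosomal RNAs mt-Rnr1 and mt-Rnr2 were at 51.8, 75.9 and 77.2 CPM and at 148, 192 and 356 CPM in WT. In Nfkb2-/- they were at 52.3, 46.1 and 46.6 CPM and at 107, 165 and 149 CPM (log2 fold changes -0.50 and -0.73, adjusted p = 0.236 and 0.341 in edgeR's test). Both were far below mt-Nd1, the protein gene next to them, and both overlapped between the genotypes. The cause of their low level was not tested. The transfer RNA genes mt-Tm and mt-Tv were highest in Nfkb2-/- replicate 1, at 127 CPM against 3.84 to 26.0 in the other libraries and at 5.17 CPM against 0.0474 to 0.551. This is the library that detected the most genes. The share of mt-Nd6 relative to mt-Nd5 counts, genes on opposite strands, was 13.01%, 13.5% and 14.8% in WT and 15.5%, 12.7% and 11.3% in Nfkb2-/-, with overlap.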
